A study of Mus musculus with 8 samples.

Results

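The dynamin family of large GTPases was examined through 5 mouse genes: Dnm2, Dnm1l, Opa1, Mfn1 and Mfn2. Members were all rows of the deposited splicing tables that carry one of these gene symbols. They came to 91 of 119019 event rows and to 5 of 12587 genes. Round spermatids contributed 36 of 52897 rows, and spermatocytes contributed 55 of 66122. The rows describe 65 distinct splicing events, of which 26 were listed in both stages. The genes were chosen with results known, and Dnm2 was chosen by its measured inclusion difference between sample groups, so that contrast is given as a description, with no test.

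The study sequenced polyadenylated RNA of germ cells from adult C57BL/6 mice, in 4 groups of 2 libraries. These were round spermatids of Larp7 knock-out mice, round spermatids of wild-type mice, spermatocytes of Larp7 knock-out mice and spermatocytes of wild-type mice. Larp7 is an RNA-binding protein that stabilises the small nuclear RNA 7SK and takes part in the modification of U6 RNA, and the knock-out was conditional; the driver of the deletion is not given in the sources used here. Cells were sorted by Hoechst staining of DNA. The labels call the libraries biological replicates without saying whether each came from its own mouse. The p-values thus measure spread between libraries, which may be technical. For inclusion this spread was in effect pooled over all tested events with like reads of the less used form. The libraries of the event itself had almost no weight in it.

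The tables number the 2 sample groups of a stage as 1 and 2, called group 1 and group 2 here, and do not name their genotype. Values within a stage are given as group 1 minus group 2, with no genotype direction, and the headers do not say whether the numbers mark the same genotype in both stages. The library sums of event reads were 49904607 and 93265932 (group 1) beside 58487298 and 56164530 (group 2) for round spermatids, and 51786242 and 102000320 (group 1) beside 64657689 and 64421409 (group 2) for spermatocytes. Lists of 4 values for a stage are ordered by group and library number. A read can count for several events, so library sizes are not known from these sums. The gene named in the labels was measured at a Larp7 exon (chromosome 3, 127544154 to 127544278, mm10). Inclusion of this exon was 0.279 and 0.598% in group 1 of round spermatids, against 100 and 100% in their group 2, and 2.4 and 0.951% in group 1 of spermatocytes, against 100 and 100% in their group 2. Sorting was checked with marker genes, in event reads scaled to the same total in every library (RPM): all 9 spermatocyte markers were analysed, and they summed to 460 to 566 RPM in round spermatids, against 3730 to 5810 in spermatocytes. The round spermatid markers, 5 of 8 analysed, summed to 2010 to 2340 RPM in round spermatids, against 673 to 785 RPM in spermatocytes. Markers of elongating spermatids, 3 of 7 analysed, summed to 9470 to 16000 RPM in round spermatids and 2120 to 3290 RPM in spermatocytes.

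Dynamins are GTPases that assemble into collars around membrane necks and drive their scission or, for the mitochondrial members, remodel and fuse membranes. Dnm2 is the widely expressed classical dynamin that cuts clathrin-coated vesicles from the plasma membrane. Dnm1l encodes DRP1, which constricts and divides mitochondria. Mfn1 and Mfn2 encode the mitofusins that join outer mitochondrial membranes, and Opa1 encodes the GTPase that fuses inner membranes and shapes cristae. Mitochondria of male germ cells change in form and position during meiosis and spermiogenesis, ending in the sheath around the sperm midpiece. Known variants of Dnm2 differ by a pair of mutually exclusive exons and by short inserts, those of Dnm1l by short inserts in the GTPase domain and the variable domain, and those of Opa1 by exons near the start of the protein that bear on its processing by proteases.

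Among the members, Dnm2 (ENSMUSG00000033335.17, chromosome 9, plus strand) carried the widest difference between sample groups in round spermatids, but not in spermatocytes. Its 12-nt cassette exon, at 21490658 to 21490669 between exons at 21489743 to 21489794 and 21494504 to 21494617, has a length that adds 4 residues without changing the frame. In round spermatids its inclusion was 91.2 and 88.2% in group 1, against 71.4 and 65.6% in group 2. In spermatocytes it was 84.5 and 87.1% in group 1, against 71.3 and 69.3% in group 2. The groups did not overlap in either stage, with the nearest libraries 16.8 points apart in round spermatids and 13.2 points apart in spermatocytes.

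The mean differences, group 1 minus group 2, were 21.2 points in round spermatids and 15.5 points in spermatocytes; leaving out any library kept them between 18.3 and 24.1 points and between 14.1 and 16.8 points. These levels rest on many reads. Group 1 had 936 and 1993 inclusion reads and 84 and 247 skipping reads in round spermatids, against 918 and 856 inclusion reads and 340 and 416 skipping reads in group 2. In spermatocytes group 1 had 851 and 2086 inclusion reads and 145 and 285 skipping reads, against 1211 and 1100 inclusion reads and 451 and 450 skipping reads in group 2. The 95% Wilson intervals, which cover counting error only, ran from 89.2 to 92.8% in library 1 of group 1 and from 68.8 to 73.9% in library 1 of group 2, both of round spermatids. Of all events that passed the read filter (a mean of at least 10 reads per library and a read of each form), 1.51% in round spermatids and 3.17% in spermatocytes differed by at least as many points. Dnm2 was chosen by this difference, so the left-out libraries, read counts, intervals and shares are a description and lend it no support.

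**Figure D1:**
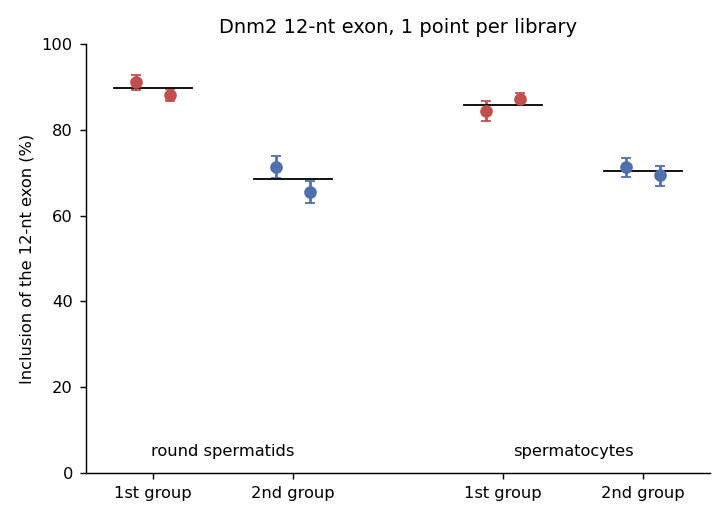
Inclusion of the 12-nt Dnm2 exon in percent, 1 point per library, with 95% Wilson intervals from its reads and a bar at each group mean. Group 1 lies between 84.5 and 91.2% and group 2 between 65.6 and 71.4%, in round spermatids and spermatocytes alike.

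The plot of the 12-nt exon by library shows that the gap lies between sample groups and not between stages. Averaged over both sample groups, inclusion was 79.1 ± 12.5% in round spermatids and 78.1 ± 9.03% in spermatocytes (SD, n = 4 each). The stage difference was 0.12 on the log2 odds scale (95% interval -0.21 to 0.44, SE 0.16), with an adjusted p of 0.770 in limma. Round spermatids minus spermatocytes came to 3.88 points in group 1 of both stages and to -1.83 points in group 2. With group 2 of both stages alone the fitted difference was -0.13. The difference between the sample groups' stage effects was not tested.

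The same 12 nt appeared in a second row with a rarely used downstream neighbour. That row held 76.9 reads per library on average, and its inclusion lay at 98.5 to 100% in round spermatids and 96.1 to 100% in spermatocytes. Its stage difference was not called. A mutually exclusive pair in the spermatocyte table, a 71-nt exon (21485651 to 21485721) and the 52-nt exon upstream of the 12-nt exon, had the 71-nt exon used in 84.5 and 86.5% in group 1, against 75.6 and 71.3% in group 2. This was a gap of 12.1 points between means, without overlap. In cassette rows of both stages the 71-nt exon was included at 99.7 to 100%, so the paired level is not the level of the exon in the transcript.

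Other cassette exons of Dnm2 and a pair of 139-nt exons were used near one extreme. In the pair of 139-nt exons that distinguishes known Dnm2 variants, the upstream exon (21478899 to 21479037) was used at 0.0415 to 0.288% in round spermatids, against 0.175 to 0.756% in spermatocytes. The stage difference was -1.35 on the log2 odds scale (SE 0.61), with an adjusted p of 0.1502 in limma, and so was not called. Nearly all reads of the pair thus belonged to the downstream exon, at 21480407 to 21480545. A 30-nt exon (21487047 to 21487076) was listed in round spermatids only; an insert of this kind is known from muscle. It had 0 and 1 inclusion reads in group 1 and 0 and 0 in group 2, beside 1193 and 2831 skipping reads in group 1 and 1524 and 1387 in group 2. A count of 0 allows up to 0.251, 0.197 and 0.216% of the reads in the 3 libraries without one. A 74-nt exon (21457503 to 21457576) was included at 99.5 to 100% in round spermatids and 98.8 to 99.7% in spermatocytes.

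Differences between sample groups were counted over all members. Of the 36 member rows in round spermatids, all of which passed the read filter, 1 differed by at least 10 points without overlap of the groups, against 3.97% of the 48060 rows that passed in that stage (1.76% higher and 2.22% lower in group 1). Of the 55 member rows in spermatocytes, all of which passed, 3 did so, against 4.48% of 61123 (1.55% higher and 2.93% lower in group 1). The 12-nt Dnm2 exon was among them in both stages. The others were the Dnm2 pair and a 111-nt exon of Opa1, both in spermatocytes. Without regard to size, 8 member rows did not overlap in round spermatids (background 25.1%) and 22 in spermatocytes (background 30.6%). Dnm2 was chosen for this contrast, and nothing is read from its place here.

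The stage comparison was not used to choose the members. Of the 26 member events listed in both stages, 7 were called by limma at an adjusted p below 0.05, with 4 higher and 3 lower in round spermatids; the background was 11.0% of 34455 events (5.62% higher and 5.33% lower). At an unadjusted p below 0.05 there were 10. The median log2 odds difference was 0.07 over the 26 events and 0.08 over all events tested. Called events lay in Dnm1l (4), Opa1 (2) and Mfn2 (1), and no event of Dnm2 or Mfn1 was called. The number of member calls was 4 without library 2 of group 1 in round spermatids, 4 without library 2 of their group 2, and 3 without library 2 of group 2 in spermatocytes.

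**Figure D2:**
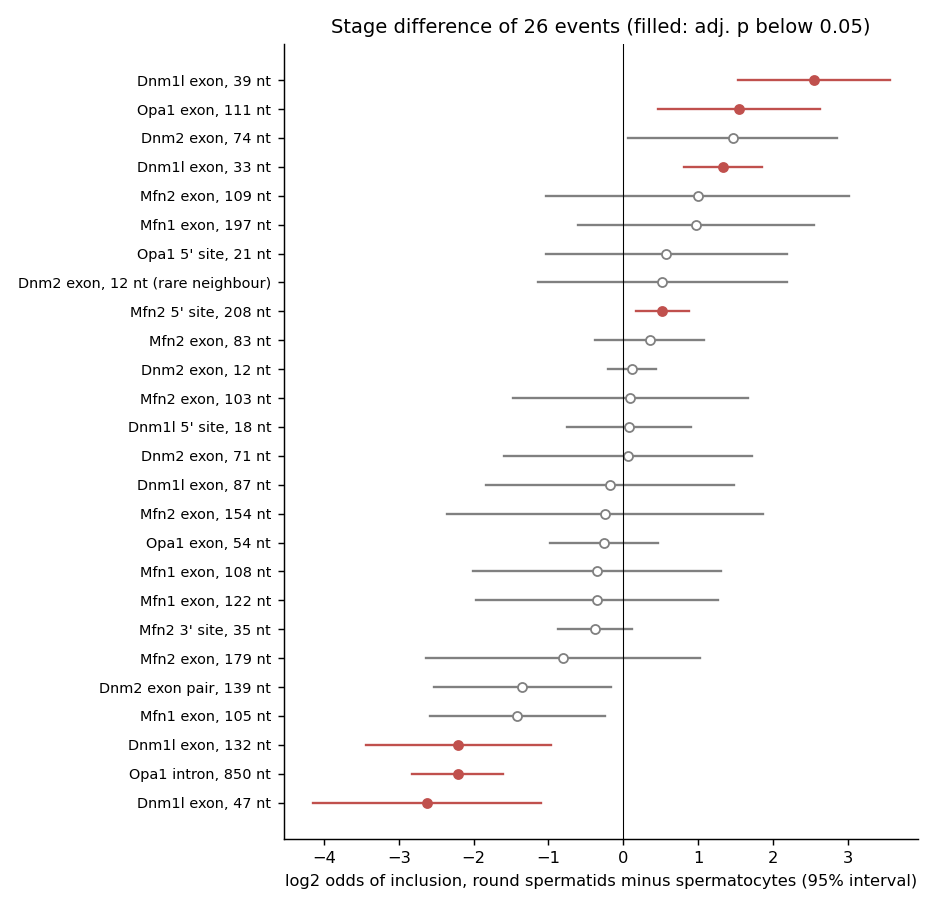
Difference in log2 odds of inclusion, round spermatids minus spermatocytes, for the 26 member events, with 95% intervals from limma. Filled points mark the 7 called events, from 2.55 for the 39-nt Dnm1l exon to -2.63 for its 47-nt exon, and open points the other 19.

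Dnm1l (ENSMUSG00000022789.14, chromosome 16, minus strand), the fission GTPase, differed between stages at 4 cassette exons. A 39-nt exon (16342697 to 16342735), whose length keeps the frame, was included at 16.4, 18.0, 12.7 and 15.7% in round spermatids, against 5.33, 3.15, 1.37 and 2.55% in spermatocytes. Every round spermatid library lay above every spermatocyte library. The log2 odds rose by 2.55 in round spermatids (SE 0.52, adjusted p = 2.78e-05 in limma). With group 2 of both stages alone the adjusted p was 0.0788.

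A 33-nt exon of Dnm1l near the 3′ end of the gene (16318445 to 16318477), which also keeps the frame, was included at 77.1, 87.2, 86.9 and 86.7% in round spermatids, against 58.5, 69.8, 69.9 and 78.2% in spermatocytes. Only the lowest round spermatid library lay below the highest spermatocyte library. Inclusion averaged 84.5 ± 4.92% in round spermatids and 69.1 ± 8.08% in spermatocytes (SD, n = 4 each), a log2 odds difference of 1.33 (SE 0.27, adjusted p = 2.10e-05 in limma). It kept its call with each library left out and lost it with group 2 of both stages alone, where the adjusted p was 0.107. Both short exons of Dnm1l thus were included more often in round spermatids, with 12.6 points more for the 39-nt and 15.4 points more for the 33-nt exon.

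The other called exons of Dnm1l moved the other way. A 47-nt exon (16341422 to 16341468), whose length does not keep the frame, was included at 87.9, 89.0, 89.5 and 90.4% in round spermatids, against 94.96, 98.5, 100 and 98.8% in spermatocytes. All round spermatid libraries lay below all spermatocyte libraries, and the log2 odds fell by 2.63 (SE 0.78, adjusted p = 0.0102 in limma). A 132-nt exon (16332001 to 16332132) was included at 92.1, 91.7, 97.2 and 90.9% in round spermatids, against 98.3, 99.1, 99.0 and 97.6% in spermatocytes, again without overlap. Its log2 odds fell by 2.21 (SE 0.63, adjusted p = 0.00675 in limma). These calls rest on few skipping reads, with 15.3 reads of the rarer form per library for the 47-nt exon and 12.8 for the 132-nt exon. Both were lost with either group of both stages alone. The adjusted p in limma was then 0.105 in group 1 and 0.226 in group 2 for the 47-nt exon. For the 132-nt exon it was 0.0591 in group 1 and 0.416 in group 2, and 0.0674 with the limma trend on total reads. The 47-nt exon lost its call without either library of group 2 in spermatocytes (adjusted p = 0.0979 without library 1 and 0.119 without library 2). The 132-nt exon lost it without library 2 of any of the 4 groups (adjusted p = 0.0648 and 0.192 for groups 1 and 2 of round spermatids, 0.0594 and 0.0607 for those of spermatocytes).

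Remaining Dnm1l rows were not called between stages or were listed in 1 stage. An alternative 5′ splice site that adds 18 nt (16345980 to 16345997) was used at 3.48 to 10.5% in round spermatids and 1.78 to 8.11% in spermatocytes, with a log2 odds difference of 0.08 (SE 0.42, adjusted p = 0.956 in limma). A second round spermatid row of this site, next to the 72-nt exon (16340996 to 16341067), held 35.3 reads per library on average. There the site was used at 11.0 and 20.3% in group 1 and 14.2 and 39.2% in group 2, and the groups overlapped. An 87-nt exon was included at 99.4 to 100% in round spermatids and 99.5 to 100% in spermatocytes. Rows that pair neighbouring Dnm1l exons as mutually exclusive gave 31.5 to 37.2% in round spermatids for 2 pairs and 38.4 to 47.8% in spermatocytes for another, and were not comparable between stages. One of the round spermatid pairs, the 47-nt and 72-nt exons, had a second row with another downstream neighbour, where the level was 0.834 to 4.12%.

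**Figure D3:**
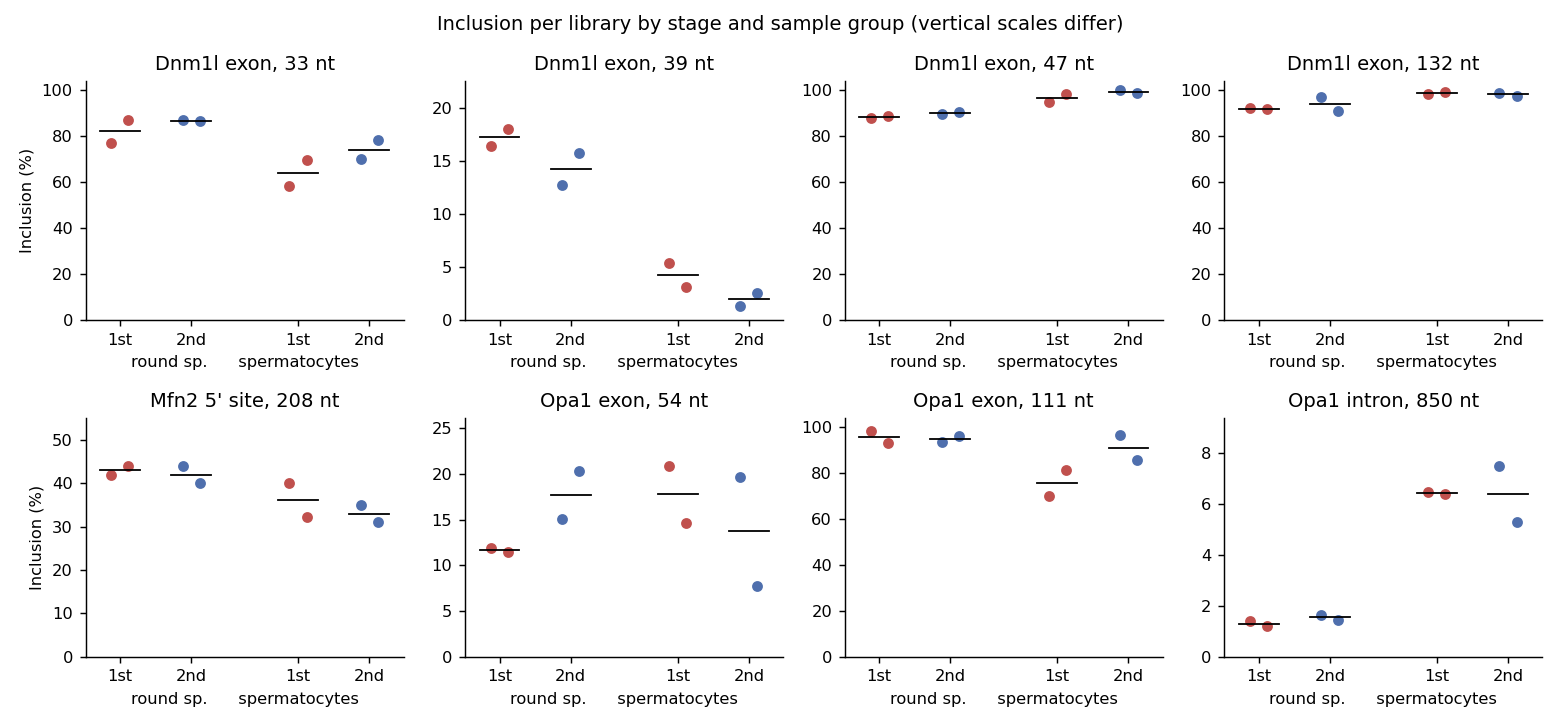
Inclusion in percent of 8 member events, 1 point per library with bars at group means, for groups 1 and 2 (1st and 2nd) of round spermatids and of spermatocytes; vertical scales differ. The 39-nt Dnm1l exon lies at 12.7 to 18.0% in round spermatids and 1.37 to 5.33% in spermatocytes, and the Opa1 intron at 1.21 to 1.65% in round spermatids and 5.30 to 7.50% in spermatocytes.

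Opa1 (ENSMUSG00000038084.16, chromosome 16, plus strand), the inner membrane fusion GTPase, held the event that was called under the most settings. Retention of an 850-nt intron (29614199 to 29615048) was 1.40, 1.21, 1.65 and 1.44% in round spermatids, against 6.48, 6.38, 7.50 and 5.30% in spermatocytes. The stages were far apart, and the sample groups lay close together within each of them. The log2 odds fell by 2.21 in round spermatids (SE 0.31, adjusted p = 9.98e-11 in limma, with the spread pooled over events). With the limma trend on total reads the SE was 0.20 and the adjusted p 0.000175. The call held in all 16 alternatives, where the adjusted p lay between 2.71e-11 and 0.0142. Reads of an intron can come from unprocessed RNA as well as from a mature transcript, and the share of each was not tested.

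A 111-nt Opa1 exon (29597586 to 29597696), whose length keeps the frame, was included at 98.4 and 93.0% in group 1 and 93.3 and 96.1% in group 2 of round spermatids. In spermatocytes it was included at 69.8 and 81.2% in group 1 and 96.5 and 85.5% in group 2. The stages overlapped, and the lower spermatocyte mean came mainly from group 1: round spermatids minus spermatocytes came to 20.2 points in group 1 of both stages and 3.67 points in group 2. Inclusion averaged 95.2 ± 2.57% in round spermatids and 83.3 ± 11.0% in spermatocytes (SD, n = 4 each), with a log2 odds difference of 1.55 (SE 0.55, adjusted p = 0.0473 in limma). The call was lost without any one of the 4 round spermatid libraries (adjusted p = 0.170, 0.196, 0.166 and 0.170), without library 1 of group 1 in spermatocytes (0.146) and without library 2 of their group 2 (0.676, log2 odds 0.79). With all libraries kept, the call was also lost with the limma trend on total reads (adjusted p = 0.1495) or without count weights (0.179). A quasi-binomial test gave an adjusted p of 0.0747. In limma with group 1 of both stages alone it was 0.0320, and with group 2 alone 0.602. Within spermatocytes group 1 lay 15.5 points below group 2. Ranges inside the groups were 11.3 and 11.0 points, with a gap of 4.34 points between the nearest libraries.

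Summed markers of spermatogonia and of Sertoli cells differed between the sample groups of spermatocytes. Genes listed as spermatogonial markers, 3 of 9 analysed (Dazl, Sohlh1 and Stra8), summed to 275 and 113 RPM in group 1. In group 2 they summed to 43.8 and 39.7 RPM. Zbtb16, Kit and Gfra1 of that list were not analysed, and the sum is not read as a share of spermatogonia. Sertoli cell markers, 3 of 7 analysed (Clu, Ctsl and Wt1), summed to 215 and 143 RPM in group 1, against 43.4 and 74.1 RPM in group 2. In round spermatids the spermatogonial sums were 18.7 and 11.5 RPM for group 1, against 16.4 and 13.0 RPM for group 2, and the Sertoli cell sums were 69.4 and 93.5 RPM for group 1, against 44.6 and 56.3 RPM for group 2. Markers of Leydig, peritubular and immune cells, 2 of 8 analysed, summed to 15.0 to 23.0 RPM in round spermatids. In spermatocytes they summed to 29.6 and 19.0 RPM in group 1, against 22.8 and 26.1 RPM in group 2, and the groups overlapped. No analysed gene of these lists was at 0 in all libraries. Their part in the differences between stages and between sample groups was not tested.

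A 54-nt Opa1 exon (29588823 to 29588876) was a minor form in every library. Its inclusion was 11.9 and 11.4% in group 1 and 15.1 and 20.3% in group 2 of round spermatids. In spermatocytes it was 20.9 and 14.6% in group 1 and 19.7 and 7.77% in group 2. The spread inside the groups covered the stage difference of -0.25 on the log2 odds scale (95% interval -0.97 to 0.47, SE 0.37, adjusted p = 0.780 in limma). An alternative 5′ splice site of 21 nt (29618288 to 29618308) was used at 0 to 1.24% in round spermatids and 0 to 0.865% in spermatocytes.

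Mfn2 (ENSMUSG00000029020.13, chromosome 4, minus strand) and Mfn1 (ENSMUSG00000027668.13, chromosome 3, plus strand), the outer membrane mitofusins, had 1 called event between them. An alternative 5′ splice site that adds 208 nt to an Mfn2 exon (147904450 to 147904657) was used at 42.0, 44.1, 43.9 and 40.1% in round spermatids, against 40.1, 32.3, 34.9 and 31.1% in spermatocytes. The lowest round spermatid and the highest spermatocyte library met, at 40.12% in each. The log2 odds rose by 0.52 (SE 0.18, adjusted p = 0.0346 in limma), the smallest of the called differences. With all libraries kept, the call was lost in limma without count weights (adjusted p = 0.108). It was also lost with group 1 (0.308) or group 2 (0.278) of both stages alone. The call was lost with any library left out except library 1 of group 1 in spermatocytes, at adjusted p-values of 0.0512 to 0.308.

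A 35-nt alternative 3′ splice site of Mfn2 (147887314 to 147887348) was used at 2.94 to 3.40% in round spermatids. In spermatocytes it was used at 5.38 and 5.37% in group 1, against 3.47 and 2.96% in group 2. Its stage difference was -0.37 on the log2 odds scale (SE 0.25, adjusted p = 0.423 in limma). A 105-nt exon of Mfn1 (32563375 to 32563479), which keeps the frame, was included at 95.1, 95.4, 98.5 and 95.8% in round spermatids, against 94.2, 98.3, 99.5 and 99.7% in spermatocytes. The stages overlapped, and the difference of -1.42 on the log2 odds scale (SE 0.60) had an adjusted p of 0.115 in limma. The cassette rows of the 5 genes that the rule for events named singly did not take, among them those of the 71-, 74-, 87- and 105-nt exons, are given as ranges. In round spermatids 16 such rows were included at 87.1 to 100% and 2 at 0 to 1.75%. In spermatocytes 29 were included at 94.2 to 100% and 1 at 0.550 to 1.02%. The lowest level in round spermatids, 87.1%, was in library 2 of group 1, in a second row of the 47-nt Dnm1l exon that was at 100% in the other libraries. The lowest in spermatocytes was in the 105-nt Mfn1 exon.

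Mutually exclusive rows of these genes often gave middle levels. In spermatocytes a 150-nt Dnm2 exon (21465582 to 21465731), paired with a 204-nt exon, was used at 45.45 and 39.8% in group 1 and 40.3 and 41.6% in group 2. The 52-nt Dnm2 exon (21489743 to 21489794), paired with a 114-nt exon, was used at 39.6 and 40.6% in group 1 and 37.6 and 37.6% in group 2. In cassette rows of spermatocytes these 4 Dnm2 exons were included at 99.3 to 100%. In spermatocytes Mfn2 pairs of neighbouring exons gave levels of 19.8 to 58.8%, Mfn1 gave 35.8 to 46.3% for 1 pair, and the Opa1 pair of a 111-nt (29630084 to 29630194) and a 75-nt exon gave 68.1 and 64.5% in group 1 and 79.0 and 69.1% in group 2. The 103-nt and 179-nt Mfn2 exons of such pairs were included at 99.7 to 100% in their cassette rows in both stages. Levels of such pairs are therefore not read as inclusion of the exons here.

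Abundance was measured in RPM, from reads over the event with the most reads in a gene among events listed in both stages. Fewer cells of a type and less RNA per cell cannot be told apart with this measure. Between stages 78.2% of the 8512 genes measured were called by limma (28.5% higher and 49.8% lower in round spermatids), and 3 of the 5 members were called, with 1 higher and 2 lower, so a call is common. The median of all genes was -0.45 on the log2 scale with scaling to the library sum and -0.02 with median-ratio scaling, and the directions of small changes depend on this choice. With median-ratio scaling 3268 genes were called higher and 3153 lower, and of the members 3 were called higher and 0 lower.

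**Figure D4:**
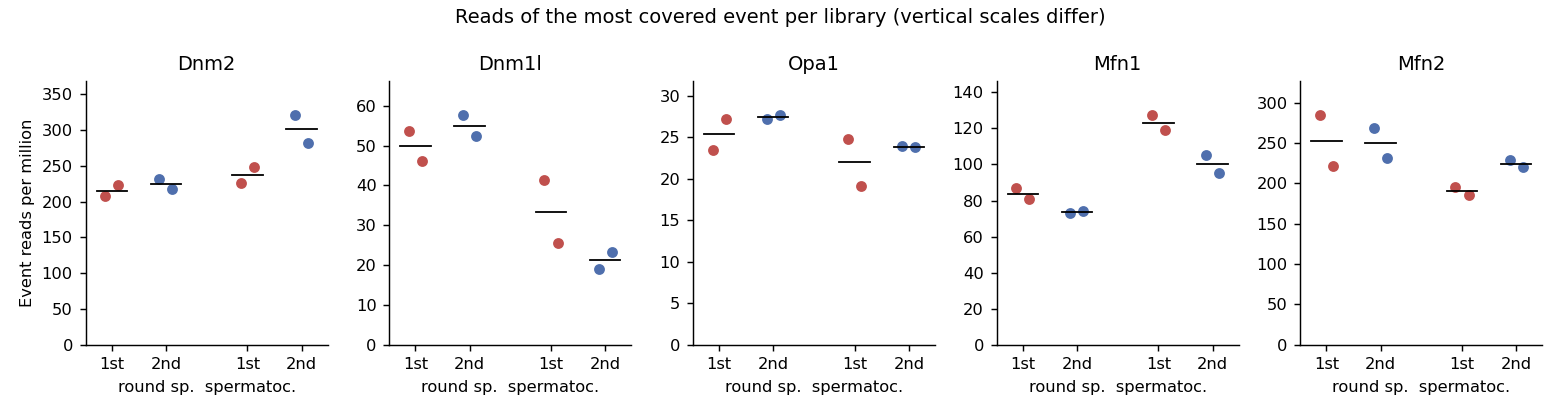
RPM of the event with the most reads in each gene among events listed in both stages, 1 point per library with bars at group means. Groups 1 and 2 (1st and 2nd) of round spermatids and of spermatocytes are shown, and vertical scales differ. Dnm1l lies at 46.1 to 57.5 in round spermatids and 19.0 to 41.3 in spermatocytes, and Dnm2, whose direction changes with median-ratio scaling, at 207 to 232 in round spermatids and 227 to 320 in spermatocytes.

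Dnm1l had 53.5, 46.1, 57.5 and 52.4 RPM in round spermatids, against 41.3, 25.5, 19.0 and 23.3 in spermatocytes. All round spermatid libraries lay above all spermatocyte libraries, and the difference was 0.997 on the log2 scale (SE 0.18, adjusted p = 0.000190 in limma) and 1.43 with median-ratio scaling. It was the only member called higher with both scalings, with an adjusted p of 0.0682 for group 1 of both stages alone. The event measured here is the 132-nt exon, whose own inclusion fell by 5.55 points in round spermatids.

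Mfn1 had 86.8, 80.7, 72.8 and 74.0 RPM in round spermatids, against 127, 119, 106 and 95.3 in spermatocytes, without overlap. It fell by 0.50 on the log2 scale (SE 0.12, adjusted p = 0.00173 in limma), close to the median of all genes, and with median-ratio scaling the difference was -0.07 (adjusted p = 0.575). Mfn2 had 284, 222, 269 and 231 in round spermatids, against 196, 185, 229 and 220 in spermatocytes. The stages overlapped, and the difference was 0.27 on the log2 scale (SE 0.12, adjusted p = 0.0507 in limma) and 0.70 with median-ratio scaling (adjusted p = 0.000105). It was called without library 2 of group 1 (adjusted p = 0.00882) or of group 2 (0.0476) in round spermatids.

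Dnm2 had 207, 224, 232 and 217 RPM in round spermatids, against 227, 248, 320 and 282 in spermatocytes, with overlap. It fell by 0.28 on the log2 scale (SE 0.11, adjusted p = 0.0316 in limma), but with median-ratio scaling the difference was 0.15 in the other direction (adjusted p = 0.281). The call was also lost without any of 5 libraries: library 1 (adjusted p = 0.0525) or library 2 (0.0926) of group 2 in round spermatids, and library 1 (0.0521) or library 2 (0.113) of group 1 or library 1 of group 2 (0.128) in spermatocytes. Opa1 had 23.5, 27.2, 27.2 and 27.7 in round spermatids, against 24.9, 19.2, 23.9 and 23.9 in spermatocytes. It was not called, at 0.21 on the log2 scale (SE 0.16, adjusted p = 0.258 in limma), and stood at 0.63 with median-ratio scaling (adjusted p = 0.00283). Levels of different genes are not compared, because each rests on an event of its own length.

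The exons most like the 12-nt Dnm2 exon over the 8 libraries were sought by the root mean square difference in inclusion. The search took in 21195 cassette exons with at least 50 reads per library on average. A choice by closeness favours exons with a like gap between sample groups, so that gap is not a result here. A 51-nt Mta1 exon came nearest, at 5.42 points, with 90.1 and 87.8% in group 1 and 75.1 and 71.5% in group 2 of round spermatids. In spermatocytes that exon stood at 75.1 and 79.2% in group 1 and 73.3 and 74.8% in group 2. Next came a 103-nt exon of Chchd7 at 5.54 points, a 114-nt exon of Catsperd at 5.92, a 93-nt exon of Mettl17 at 6.33 and a 118-nt exon of Pan3 at 6.47 points. The Catsperd exon, of a gene of the sperm calcium channel complex, was at 87.0 and 83.0% against 71.3 and 66.5% in round spermatids and at 89.8 and 92.1% against 80.1 and 79.6% in spermatocytes, each with group 1 against group 2.

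Genes that work with the mitochondrial members were read from a list of 35 symbols, of which 21 were measured. In abundance, 5 rose and 11 fell in round spermatids, with a median of -0.56 on the log2 scale, beside 28.5% higher, 49.8% lower and a median of -0.45 for all genes; with median-ratio scaling 7 rose and 10 fell, with a median of -0.13. Slc25a46, an outer membrane protein linked to fusion, had 132, 124, 133 and 123 RPM in round spermatids, against 33.8, 31.4, 19.7 and 20.6 in spermatocytes. Chchd3, a subunit of the complex that holds cristae junctions, had 220 to 422 in round spermatids and 73.6 to 90.7 in spermatocytes. Mief2, an adaptor that recruits DRP1, had 0.527 to 1.56 in round spermatids and 5.84 to 13.4 in spermatocytes, and Rhot2, a GTPase of mitochondrial transport, had 6.16 to 10.1 in round spermatids and 36.8 to 46.5 in spermatocytes. Relative to the median of all genes, the log2 differences were 2.77 for Slc25a46, 2.41 for Chchd3, -3.11 for Mief2 and -2.03 for Rhot2.

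Of 114 events of these genes, 14 were called between stages in inclusion, or 12.3%, beside the background of 11.0%, with 6 higher and 8 lower in round spermatids. A 33-nt exon of Mff, the outer membrane receptor of DRP1, was included at 71.1, 69.3, 69.3 and 66.3% in round spermatids, against 60.0, 57.2, 61.0 and 60.6% in spermatocytes. The stages did not overlap, and the log2 odds rose by 0.59 (SE 0.14, adjusted p = 0.000792 in limma). In a second spermatocyte row the same exon was included at 53.0 and 51.2% in group 1, against 74.5 and 69.6% in group 2, a difference of -20.0 points. A 172-nt exon of Mff was included at 56.3 and 61.4% in group 1, against 71.4 and 73.6% in group 2 of round spermatids. Over the list, 3 of 138 rows in round spermatids (2.17%, background 3.97%) and 4 of 209 in spermatocytes (1.91%, background 4.48%) differed by at least 10 points without overlap. Retention of a 1084-nt intron of Parl, an inner membrane protease, was 0.587 to 0.959% in round spermatids and 2.01 to 4.71% in spermatocytes, and its log2 odds fell by 1.95 (SE 0.29, adjusted p = 5.98e-10 in limma). A 187-nt exon of Fis1, a fission adaptor, was included at 0.688 to 2.60% in round spermatids and 3.63 to 5.36% in spermatocytes, a log2 odds difference of -1.74 (SE 0.37, adjusted p = 9.46e-05 in limma).

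Partners of Dnm2 in clathrin-mediated endocytosis were read from a list of 51 symbols, with 38 measured. In abundance 14 rose and 20 fell, with a median of -0.54 on the log2 scale, beside 28.5% higher and 49.8% lower of all genes, but with median-ratio scaling 17 rose and 14 fell, with a median of -0.11. Sh3kbp1, an adaptor with SH3 domains, had 55.4 to 107 RPM in round spermatids and 4.94 to 5.78 in spermatocytes. Cttn, the actin-binding protein cortactin, had 0.489 to 1.67 in round spermatids and 11.4 to 24.5 in spermatocytes, and Epn2, an epsin that bends the membrane, had 20.4 to 24.8 in round spermatids and 180 to 216 in spermatocytes. Of 189 events, 11 were called in inclusion, or 5.82% beside the background of 11.0%, with 6 higher and 5 lower. In Pacsin2, a BAR domain protein that binds dynamin, a 176-nt exon of a mutually exclusive pair was used at 22.5 to 27.4% in round spermatids and 45.4 to 53.3% in spermatocytes, a log2 odds difference of -1.45 (SE 0.20, adjusted p = 5.96e-11 in limma). As for the pairs of the members, this level is not read as inclusion of the exon.

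Of 11 other large GTPases of the superfamily, 5 were measured, with 1 called higher and 4 lower in round spermatids (28.5% and 49.8% of all genes), or 1 higher and 2 lower with median-ratio scaling. Dnm1, the dynamin best known from neurons, had 43.9 to 64.0 RPM in round spermatids and 118 to 160 in spermatocytes, and it fell by 1.33 on the log2 scale (SE 0.15, adjusted p = 2.85e-06 in limma), or by 0.90 with median-ratio scaling. Ehd1, a GTPase of endosome recycling, had 800 to 960 in round spermatids and 369 to 482 in spermatocytes. Of their 24 events, 1 was called in inclusion, or 4.17% beside the background of 11.0%, a 413-nt exon of Ehd1 at 99.2 to 99.7% in round spermatids and 97.8 to 99.5% in spermatocytes. Between sample groups, 4 of 40 rows in round spermatids (10%, background 3.97%) and 4 of 30 in spermatocytes (13.3%, background 4.48%) differed by at least 10 points without overlap, with 3 and 2 of them higher in group 1. In round spermatids a 139-nt exon of a mutually exclusive Dnm1 pair was used at 67.0 and 69.9% in group 1, against 47.4 and 47.3% in group 2. A 37-nt Dnm1 exon of another such pair went the other way in round spermatids, at 65.6 and 63.6% in group 1, against 82.1 and 73.7% in group 2. In spermatocytes that pair had the 37-nt exon at 76.4 and 91.7% in group 1, against 74.3 and 67.3% in group 2, while its cassette row was at 65.5 and 50.4% in group 1, against 91.2 and 82.3% in group 2. The rows of this exon thus differed in direction, and the levels of the Dnm1 pairs are not read as inclusion of the exons.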

How the data were processed

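STAR and the build mm10 are named in the submitters' processing notes; their versions and the splicing caller are not given there. The 10 deposited tables, 1 per stage and event type, hold in each count cell inclusion and skipping reads of 2 libraries, joined by a comma, and deposited inclusion fractions. The deposited p-values and the deposited difference score of the authors' own test were not used. Inclusion levels were recomputed from the deposited reads divided by the form lengths and lay within 0.0005 of the deposited fractions. The inclusion form is 149 nt longer than the alternative part in every row.

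For stage differences, limma (3.58.1, R 4.3.3) was fitted to the 8 libraries in 4 groups, with Benjamini-Hochberg adjustment over all events or genes and calls below 0.05. Inclusion used weighted log2 odds of events in both stages, with on average 0.5 reads added. Events needed a mean of at least 10 reads per library and a read of each form. The spread was shrunk to a trend on the mean reads of the rarer form, which set it almost alone. Abundance used log2 event reads, of events in both stages, scaled to equal library sums, with 0.5 reads added. Scripts were tested on simulated data, and figures used matplotlib 3.10.9 (Python 3.11.15). The members, lists and fits were chosen with earlier results of these data known. Events named singly were the 12-nt Dnm2 exon, called events, events separated by at least 10 points between sample groups, and events with at least 10 reads of the rarer form and inclusion between 5 and 95% in a library; others were given in ranges. List genes named are among at most 4 per list and direction with the largest called change. Alternatives changed the trend, added reads, weights, test, filters, scaling, measure and libraries. No exon or protein sequence is printed, and none was read.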

Additional observations from a re-analysis of the deposited data

How the results depend on the processing

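No paired analysis was possible because the table headers give the libraries no replicate numbers. Events called between stages numbered 3775 and came to 5700 with 0.5 reads added without scaling, 2277 with group 1 of both stages only, 913 with group 2 only, and 1996 to 3115 with 1 library left out (1996 without library 2 of group 1 in round spermatids). Member events called numbered 7, against 4 with group 1 of both stages only, 1 with group 2 only and 3 to 7 with 1 library left out. Members called in abundance numbered 3, against 1 with group 1 of both stages only and 2 to 4 with 1 library left out. The stage difference of the 12-nt Dnm2 exon turned to -0.13 with group 2 of both stages only, and that of Dnm2 abundance to 0.15 with median-ratio scaling; neither was called there. The cause was not tested, except that single groups and left-out libraries hold fewer libraries. Between sample groups, a limit of 5 points gave 3876 events in all and 2 of the members in round spermatids, and 6071 and 7 in spermatocytes. With 1 library left out, 10-point counts were 3283 to 3749 events in all and 1 to 2 of the members in round spermatids, and 3598 to 4975 and 2 to 4 in spermatocytes. The members came to 2 in round spermatids without library 1 or 2 of group 1 or library 1 of group 2. A lone library cannot overlap itself, which raises these counts. With 2 libraries per group, differences near the libraries' spread are not resolved, and the depth of events with few reads of the rarer form limits them further.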
